A study of Mus musculus with 16 samples.

Results

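The 10 genes described here encode elastin and the proteins of the microfibrils around it: Eln, Fbn1, Fbn2, Fbln1, Fbln2, Fbln5, Mfap2, Mfap4, Mfap5 and Emilin1. They were chosen by name from the 13733 genes of the expression table, with earlier results of these data known. All 10 were listed and passed the filter on low values, as did 13173 genes in all. The gene lists used below were also chosen with earlier results known. Counts of listed genes that rose or fell after injury stand beside the shares of all genes as a description, and not as a test of the lists. The higher level of Mfap4 in injured Trem2-/- than in injured WT joints was known from earlier results on these data when the 10 genes were chosen. Differences between the genotypes after injury, and differences in injury response between the genotypes, are therefore given as a description with no test. The test of injury in Trem2-/- mice uses the same D7 values of Mfap4, so its result for Mfap4 is no independent support.

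Bulk RNA-seq was performed on cells from knee joints of 16 mice, 4 in each of 4 groups. WT D0 mice were uninjured wildtype C57BL/6 mice, and WT D7 mice were wildtype mice 7 days after anterior cruciate ligament injury by a single compressive load on the tibia. Trem2-/- D0 and Trem2-/- D7 mice were the same without Trem2, a receptor of myeloid cells, from a purchased germline knockout line. The study's methods describe cells released from male joints with collagenase and a stranded library kit. The sample labels give cells from knee joints injured at 10 weeks, but also an age of 16 weeks and a protocol for homogenised whole joints of control and diabetic mice with another kit, which leaves the origin of the RNA uncertain. Whether the cells were enriched for CD45, the pan-leukocyte surface protein, is not stated. Injury at day 7 is a single time point, so the values say nothing about when a level rose or how long it lasted.

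Between 11567073 and 32867818 reads per library fell on the listed genes, and 3 reads corresponded to between 0.101 and 0.25 CPM (reads of a gene relative to its library's TMM-adjusted total). The lowest value of any of the 10 genes in any library was 2.08 CPM, for Fbn2. Trem2 lay between 10.7 and 22.5 CPM in WT D7 mice and between 3.42 and 4.84 CPM in Trem2-/- D7 mice, with no overlap. At D0 the Trem2 values of the genotypes overlapped, from 2.51 to 5.61 CPM in WT and from 0.948 to 2.68 CPM in Trem2-/- mice. The reads left in Trem2-/- mice were not placed within the gene.

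An elastic fiber has a core of crosslinked elastin laid down on a scaffold of microfibrils, which are made mainly of fibrillins. Fibroblasts and other connective tissue cells secrete tropoelastin, the soluble precursor, fibulins help to place it on the microfibrils, and lysyl oxidases crosslink it. In joints, these fibers are found in ligament, meniscus, capsule and synovium, where they let the tissue recoil after stretch, and microfibrils also hold latent TGF-beta in the matrix.

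The coding sequences show how the core protein differs from its scaffold. In the longest GENCODE M21 coding transcript on GRCm38, Eln has 860 codons, of which 36.3% are glycine and 0.233% cysteine. Fbn1 and Fbn2 have 2873 and 2907 codons, of which 12.6% and 12.5% are cysteine. The valine-proline-glycine triplet (GTN CCN GGN in frame) repeated in elastin occurs 23 times in Eln, the highest number among 13411 listed genes with a coding sequence, of which 15.3% hold it at all. The stretch of Eln with the most triplets is printed 5′ to 3′ with the triplet codons in capitals. It covers codons 613 to 662, in exons 27 and 28, on the minus strand of chr5:134710138-134711203, an interval that includes the intron between them.

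Eln: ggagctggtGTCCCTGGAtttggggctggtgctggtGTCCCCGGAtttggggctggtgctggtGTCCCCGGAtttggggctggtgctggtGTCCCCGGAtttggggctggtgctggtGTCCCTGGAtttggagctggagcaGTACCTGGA

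The arginine-glycine-aspartate triplet, a recognition motif of integrins, was found in frame in 7 of the 10 coding sequences (CGN, AGA or AGG, then GGN, then GAT or GAC). It was found in 9.08% of the 13411 listed genes with a coding sequence, whatever their length. Fbn2 holds 2 such triplets, Fbn1, Fbln2, Fbln5, Mfap4, Mfap5 and Emilin1 hold 1 each, and Eln, Fbln1 and Mfap2 hold none. A match in letters is a description and not a binding site. The triplet is shown in capitals for Fbln5, whose product is known to bind integrins, and for Mfap4, Mfap5 and Emilin1, which rose after injury in Trem2-/- mice. Those of Fbn1, Fbn2 and Fbln2, which also rose there, are not printed. The printed stretches lie at chr12:101809900-101809962 on the minus strand for Fbln5 (exon 4), in GRCm38. Those on the plus strand lie at chr11:61485769-61486063 for Mfap4 (exons 2 and 3), chr6:122515350-122520607 for Mfap5 (exons 3 and 4) and chr5:30918121-30918183 for Emilin1 (exon 4). The intervals of Mfap4 and Mfap5 include the intron between their exons.

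Fbln5: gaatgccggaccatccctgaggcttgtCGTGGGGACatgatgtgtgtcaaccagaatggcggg

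Mfap4: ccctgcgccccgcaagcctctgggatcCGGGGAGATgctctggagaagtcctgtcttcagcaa

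Mfap5: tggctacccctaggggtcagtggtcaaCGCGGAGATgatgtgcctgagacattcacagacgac

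Emilin1: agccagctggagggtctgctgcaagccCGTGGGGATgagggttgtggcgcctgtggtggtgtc

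Injury was followed by higher levels of most of these genes in both genotypes. In WT mice 6 of the 10 genes rose at D7 (Eln, Fbn1, Fbn2, Mfap2, Mfap5 and Emilin1) with limma's adjusted p under 0.05, against 15.9% of all genes tested. None fell, against 12.6% of all genes. In Trem2-/- mice 8 rose, the same 6 with Mfap4 and Fbln2, against 26.0%, and none fell, against 27.2%. All counts of genes that rose in Trem2-/- mice include Mfap4, whose high D7 level there was known when the genes were chosen. The 10 genes had a median log2 fold change of 1.55 in WT and of 2.19 in Trem2-/- mice, against -0.04 over all genes in both. Under the rule of the study's methods (unadjusted p under 0.05 and a minimum fold) 7 of the 10 were higher in WT, against 19.3%, and 9 in Trem2-/- mice, against 26.5%. All 4 D7 values lay above all 4 D0 values for 5 genes in WT, against 12.9%, and for 9 genes in Trem2-/- mice, against 26.1%. In bulk libraries of mixed cells, a change in the number of cells that express a gene and a change in RNA per cell cannot be told apart.

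**Figure D1:**
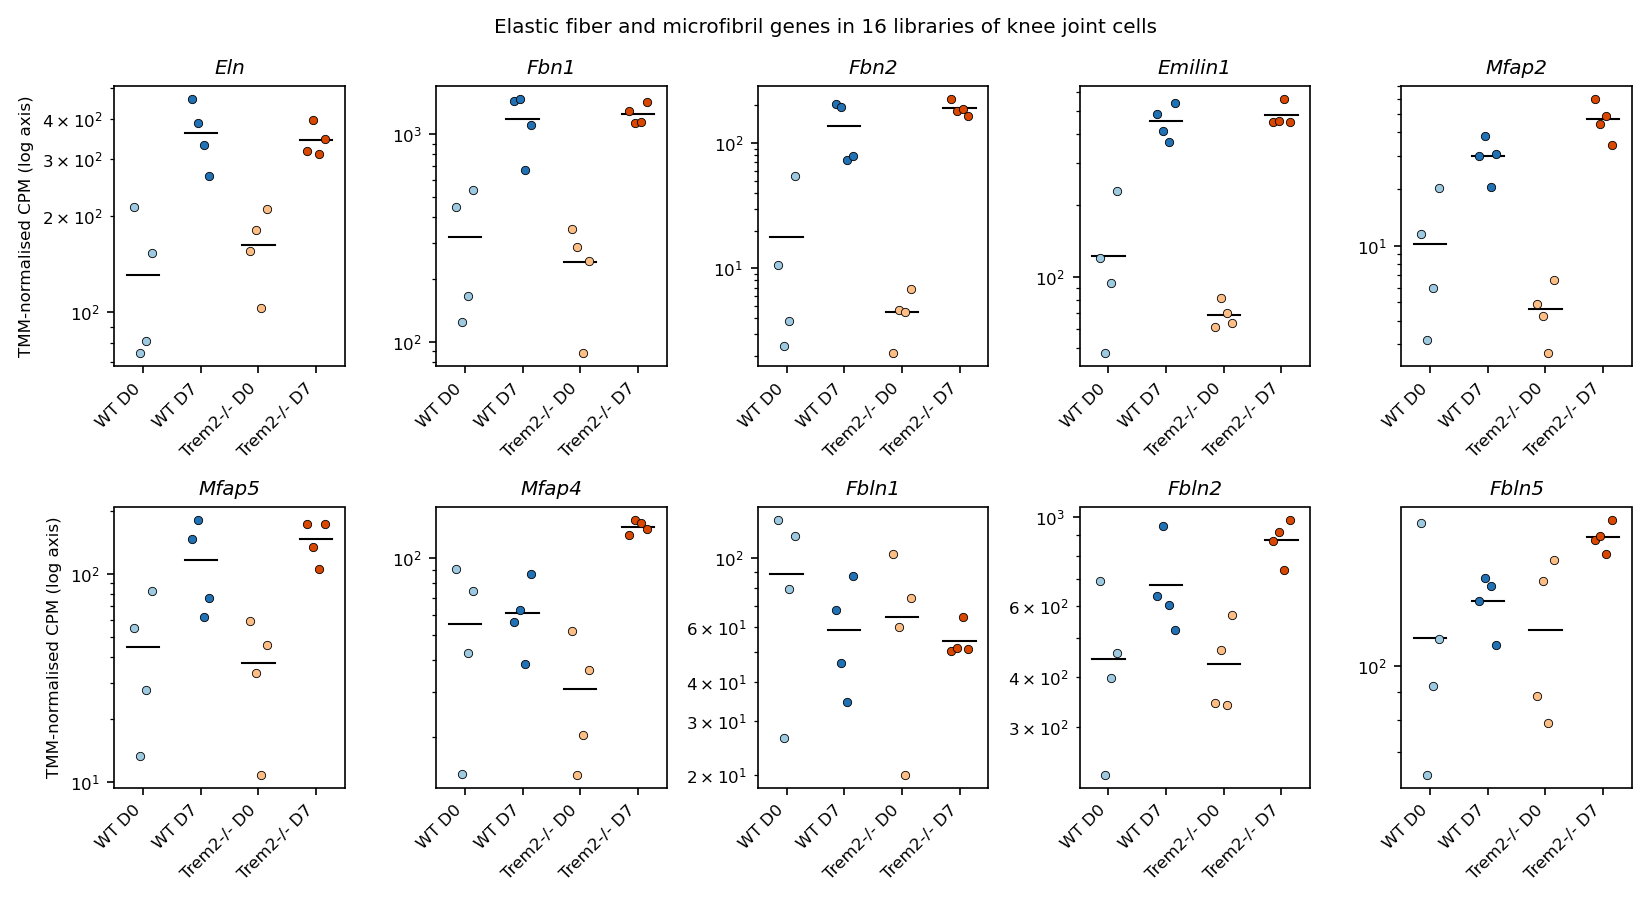
TMM-normalised CPM (log axis) of each of the 10 genes in the 16 libraries, 4 points a group, with a line at the mean. The D7 points of Fbn2 lie above its D0 points in both genotypes, from 73.0 to 226 CPM against 2.08 to 54.4 CPM, while those of Fbln1 overlap its D0 points.

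Eln, the gene of tropoelastin, was at 213, 74.4, 81.6 and 153 CPM in the 4 WT D0 mice and at 462, 389, 332 and 266 CPM in the WT D7 mice. The Trem2-/- mice had 155, 180, 103 and 209 CPM at D0 and 317, 398, 310 and 346 CPM at D7. The D7 values were above the D0 values in both genotypes. The log2 fold change was 1.57 ± 0.30 (SE, n = 4 per group, limma adjusted p = 0.00239) in WT and 1.12 ± 0.30 (limma adjusted p = 0.00536, n = 4) in Trem2-/- mice. Eln was the only one of the 9 genes with a positive injury response whose fitted rise was smaller in Trem2-/- than in WT mice, by 0.46 on the log2 scale with an SE of 0.42. The gene lies at chr5:134702593-134747323 on the minus strand, and 267 of its 8098 exon bases overlap an exon of the antisense gene Gm30003.

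Fbn1, which encodes the main fibrillin of adult microfibrils, was at 445, 125, 166 and 541 CPM in WT D0 mice and at 1449, 1479, 673 and 1102 CPM in WT D7 mice. Trem2-/- mice were at 349, 288, 88.0 and 245 CPM at D0 and at 1295, 1133, 1149 and 1426 CPM at D7. The highest D0 value was below the lowest D7 value in each genotype. The means rose 3.68-fold in WT and 5.16-fold in Trem2-/- mice, with log2 fold changes of 2.07 ± 0.47 (SE, limma adjusted p = 0.00587) and 2.52 ± 0.47 (limma adjusted p = 0.000422). The gene lies at chr2:125300594-125507993 on the minus strand. Of its 12128 exon bases, 20.1% overlap the antisense gene Gm9913, and whether reads were counted by strand is not given in the sources used here.

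Fbn2, the fibrillin known for its high expression in developing and growing tissue, had the largest rise of the 10 genes. It was at 10.5, 2.39, 3.77 and 54.4 CPM in WT D0 mice and at 204, 196, 73.0 and 79.1 CPM in WT D7 mice. Its Trem2-/- values were 2.08, 4.61, 4.47 and 6.80 CPM at D0 and 226, 179, 187 and 164 CPM at D7. The groups did not overlap, although WT D0 replicate 4 came closest to the injured mice. The log2 fold change was 3.63 ± 0.65 in WT (SE, limma adjusted p = 0.00173) and 5.18 ± 0.65 in Trem2-/- mice (limma adjusted p = 2.92e-05). By size of the log2 fold change this placed Fbn2 at rank 7 of 13173 genes in WT and at rank 8 in Trem2-/- mice. Without WT D0 replicate 4 the WT value was 4.44, so that this mouse alone moved the fold by more than 1.5 times. With edgeR's quasi-likelihood test the WT value was 2.96, and with a pseudocount of 5 the values were 3.04 in WT and 4.37 in Trem2-/- mice. The gene lies on the minus strand of chromosome 18, from 58008623 to 58210487.

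Emilin1 encodes a glycoprotein at the interface of elastin and microfibrils. It was at 119, 47.5, 93.7 and 229 CPM in WT D0 mice and at 484, 410, 370 and 540 CPM in WT D7 mice. Emilin1 in Trem2-/- mice was at 61.3, 81.2, 70.1 and 63.9 CPM at D0 and at 449, 450, 562 and 450 CPM at D7. Neither pair of groups overlapped, and the D7 values of the genotypes overlapped. The log2 fold change was 2.07 ± 0.32 in WT (SE, limma adjusted p = 0.000841) and 2.77 ± 0.32 in Trem2-/- mice (limma adjusted p = 1.91e-05). The gene lies at chr5:30913402-30921277 on the plus strand.

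**Figure D2:**
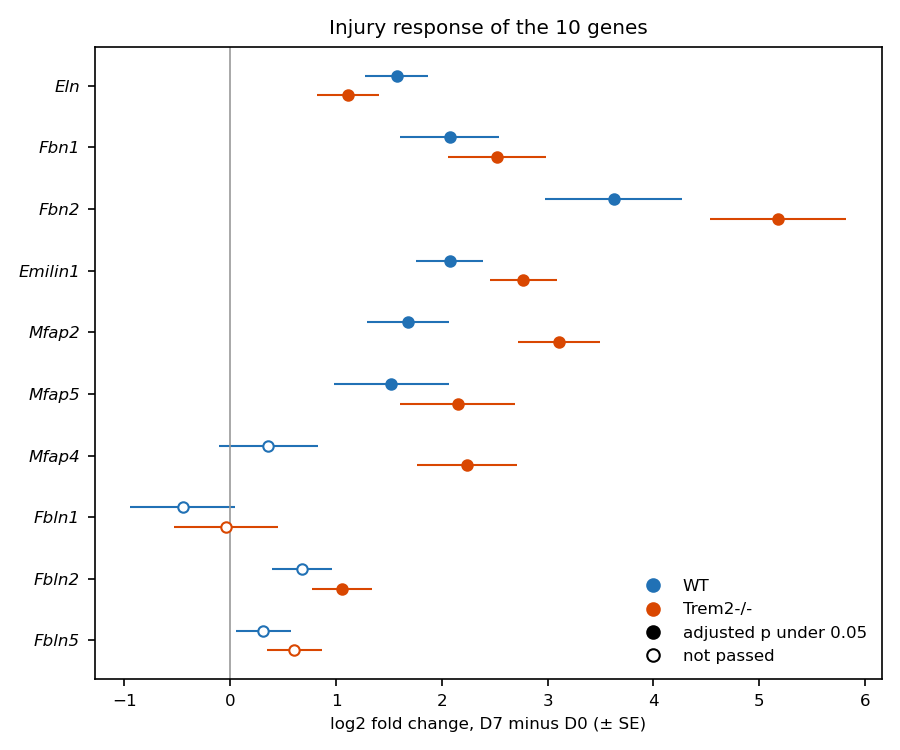
Fitted log2 fold change from D0 to D7 of each of the 10 genes (± SE) in WT (blue) and Trem2-/- mice (orange), filled where limma's adjusted p was under 0.05. Fbn2 has the largest values, 3.63 and 5.18, and Fbln1 lies at -0.45 and -0.04.

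Mfap2 and Mfap5 encode the paired small microfibril-associated glycoproteins that bind fibrillins, and lie on the plus strand at chr4:141010418-141015984 and chr6:122505845-122529290. Mfap2 was at 11.6, 3.16, 5.95 and 20.2 CPM in WT D0 mice and at 30.0, 38.1, 20.4 and 30.6 CPM in WT D7 mice. In Trem2-/- mice it was at 4.91, 4.23, 2.68 and 6.57 CPM at D0 and at 60.0, 44.0, 48.5 and 34.0 CPM at D7. The lowest WT D7 value was only just above the highest WT D0 value, whereas the Trem2-/- groups lay far apart. The log2 fold change was 1.68 ± 0.39 in WT (SE, limma adjusted p = 0.00652) and 3.11 ± 0.39 in Trem2-/- mice (limma adjusted p = 2.88e-05), or 2.42 with a pseudocount of 5. Mfap5 was at 54.7, 13.3, 27.8 and 83.0 CPM in WT D0 mice and at 148, 181, 62.0 and 76.6 CPM in WT D7 mice. Its Trem2-/- values were 59.1, 33.2, 10.8 and 45.4 CPM at D0 and 174, 134, 105 and 173 CPM at D7. The WT groups of Mfap5 overlapped and the Trem2-/- groups did not. Its log2 fold change was 1.52 ± 0.54 in WT (SE, limma adjusted p = 0.0465) and 2.15 ± 0.54 in Trem2-/- mice (limma adjusted p = 0.00389). The WT call of Mfap5 was kept in 15 of 27 alternative settings and lost in the others, among them edgeR's quasi-likelihood test (adjusted p = 0.0626) and the fit without WT D0 replicate 2 (limma adjusted p = 0.151). It was also lost without WT D0 replicate 3, without replicate 1, 2 or 4 of WT D7, without any 1 of the 4 Trem2-/- D7 mice and without Trem2-/- D0 replicate 2, and the adjusted p over all alternatives ran from 0.0164 to 0.151.

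Mfap4 encodes a fibrinogen-related protein that binds tropoelastin and microfibrils. It was at 90.8, 14.2, 42.5 and 74.0 CPM in WT D0 mice and at 56.0, 62.6, 38.4 and 86.2 CPM in WT D7 mice. The WT groups overlapped almost wholly, and the log2 fold change was 0.36 ± 0.47 (SE, limma adjusted p = 0.580), or -0.17 without WT D0 replicate 2. Mfap4 in Trem2-/- mice was at 51.8, 14.2, 20.3 and 36.4 CPM at D0 and at 123, 141, 137 and 130 CPM at D7. These groups lay apart, and Mfap4 rose with a log2 fold change of 2.24 ± 0.47 (SE, limma adjusted p = 0.00110). The D7 values in this test were known to be high when the genes were chosen, so its p-value is no independent support. The D7 values in Trem2-/- mice also varied little, with a coefficient of variation of 6.03% against 32.6% in WT D7 mice. The gene lies at chr11:61485431-61488900 on the plus strand, and 89 of its 1922 exon bases overlap Mapk7 on the other strand.

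Fbln1, Fbln2 and Fbln5 encode fibulins, calcium-binding glycoproteins of elastic fibers and basement membranes, and their fitted changes were smaller than those of Fbn1 and Fbn2. Fbln1 lies at chr15:85205949-85286535 and Fbln2 at chr6:91212455-91272540 on the plus strand, and Fbln5 at chr12:101746565-101819055 on the minus strand. Fbln1 lay between 26.4 and 133 CPM in WT D0 mice and between 34.4 and 87.4 CPM in WT D7 mice. In Trem2-/- mice it lay between 20.04 and 104 CPM at D0 and between 50.3 and 64.7 CPM at D7. The groups overlapped in both genotypes, and the log2 fold changes were -0.45 ± 0.49 (SE, limma adjusted p = 0.505) and -0.04 ± 0.49 (limma adjusted p = 0.955). With a 95% confidence interval from -1.50 to 0.60 in WT, these data do not exclude a fall or a rise of Fbln1. The Trem2-/- value turned to 0.26 without Trem2-/- D0 replicate 1 and to 0.10 without Trem2-/- D0 replicate 4.

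Fbln2, which is also found in basement membranes, lay between 227 and 692 CPM in WT D0 mice and between 522 and 951 CPM in WT D7 mice. These groups overlapped, and the log2 fold change was 0.68 ± 0.28 (SE, limma adjusted p = 0.0784), passing without WT D0 replicate 1 (0.93, limma adjusted p = 0.0137). Fbln2 in Trem2-/- mice lay between 340 and 568 CPM at D0 and between 737 and 982 CPM at D7. It rose there without overlap, with a log2 fold change of 1.06 ± 0.28 (SE, limma adjusted p = 0.00547). Fbln5 is needed for tropoelastin to be deposited on microfibrils. It lay between 63.8 and 181 CPM in WT D0 and between 109 and 144 CPM in WT D7 mice, with a log2 fold change of 0.31 ± 0.26 (SE, limma adjusted p = 0.368). Fbln5 in Trem2-/- mice lay between 78.9 and 155 CPM at D0 and between 159 and 183 CPM at D7. The Trem2-/- groups of Fbln5 did not overlap, but the log2 fold change of 0.61 ± 0.26 (SE) did not pass the threshold (limma adjusted p = 0.0611), and it passed in 6 of 27 alternative settings, among them those without WT D0 replicate 1 or 2 or without Trem2-/- D0 replicate 2 or 4 (adjusted p from 0.0227 to 0.186 over all alternatives).

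Levels of different genes were compared as CPM per kb of exon, where the length joins the exons of all annotated transcripts of a gene. This length is 8098 bases for Eln, with 2583 coding bases, and 12128 bases for Fbn1, with 8622 coding bases. The order of the genes depends on this choice of length, and other lengths were not tested. Fbln2 had the highest mean level in all 4 groups, at 69.7 ± 30.2 (SD, n = 4) in WT D0, 106 ± 29.6 in WT D7, 67.3 ± 17.2 in Trem2-/- D0 and 138 ± 16.2 in Trem2-/- D7 mice. In WT D7 mice Fbln2 was above the next gene, Fbn1 (96.9 ± 31.0), in 2 of 4 libraries only, so these neighbours did not differ beyond their spread. Emilin1 followed at 91.4 ± 15.3 in WT D7 mice and was above the next gene, Eln, at 44.7 ± 10.3, in 4 of 4 libraries. Fbn2 was the lowest in WT D0 (1.35 ± 1.87), Trem2-/- D0 (0.340 ± 0.146) and WT D7 mice (10.5 ± 5.43). In Trem2-/- D7 mice the lowest was Fbln1 (12.4 ± 1.59), with Fbn2 above it in 3 of 4 libraries. Eln was at position 7 in WT D0, 4 in WT D7, 2 in Trem2-/- D0 and 5 in Trem2-/- D7 mice. In WT D0 mice Fbln5, at position 6, was above Eln in 2 of 4 libraries only. Mfap4 was at position 2 in WT D0, 6 in WT D7, 5 in Trem2-/- D0 and 4 in Trem2-/- D7 mice. In WT D0 mice Mfap4 (28.8 ± 17.7) was above the next gene, Fbn1 (26.3 ± 16.9), in 2 of 4 libraries only. In WT D7 mice Mfap5 was above Mfap4 in 2 of 4 libraries, so these neighbours did not differ beyond their spread either.

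Ratios between related genes within each library are given as a description with no test, since the pairs were chosen after the values were seen. The ratio of Fbn2 to Fbn1 per kb was 0.0217, 0.0176, 0.0208 and 0.0923 in WT D0 mice and 0.130, 0.122, 0.0995 and 0.0659 in WT D7 mice. In Trem2-/- mice it was 0.00548, 0.0147, 0.0467 and 0.0255 at D0 and 0.160, 0.145, 0.149 and 0.105 at D7. Fbn1 thus remained the more abundant fibrillin transcript in every library. The geometric mean of the ratio was 3.44 times higher at D7 than at D0 in WT, where the groups overlapped, and 7.86 times higher in Trem2-/- mice, where they did not. The ratio of Eln to Fbn1 was 0.71 times its D0 level in WT, with overlap, and 0.38 times in Trem2-/- mice, with none. The ratio of Mfap2 to Mfap5 was 1.21 times higher in WT and 2.28 times higher in Trem2-/- mice, and its groups overlapped in both.

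**Figure D3:**
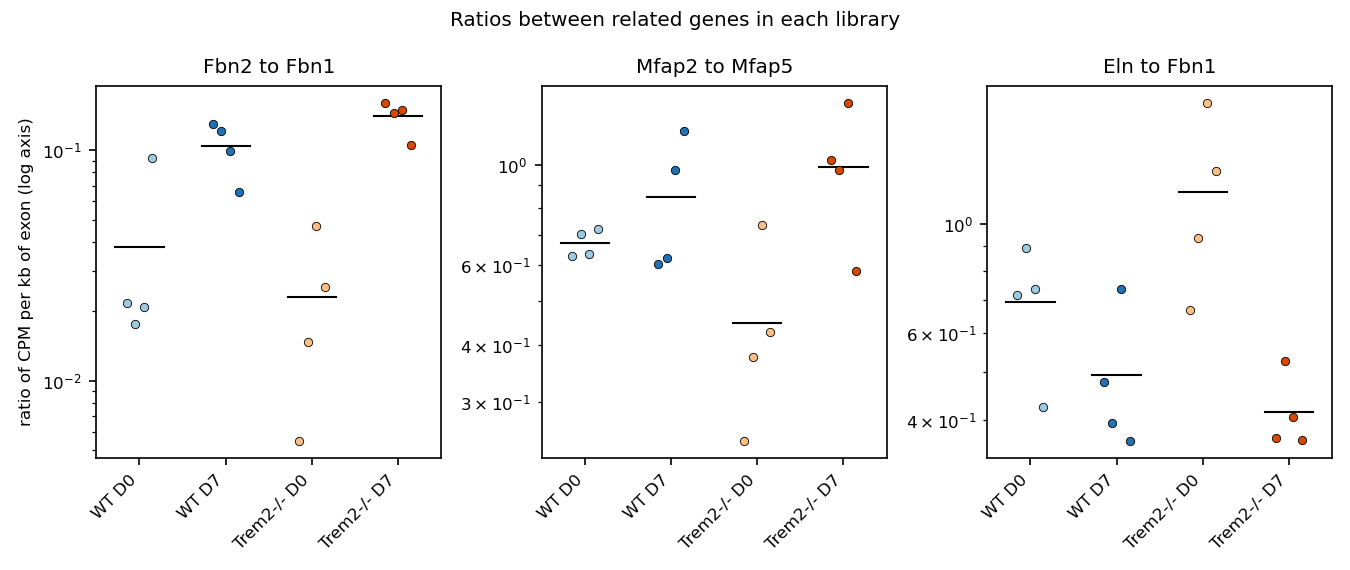
Ratios of CPM per kb of exon (log axis) in the 16 libraries, with a line at each group's mean. The ratio of Fbn2 to Fbn1 lies between 0.00548 and 0.0467 in Trem2-/- D0 mice and between 0.105 and 0.160 in Trem2-/- D7 mice.

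The 10 genes did not vary alone across libraries. WT D0 replicate 2 had the lowest value of its group for 10 of the 10 genes, and WT D0 replicates 1 and 4 had the highest for 5 each. WT D7 replicate 3 and Trem2-/- D0 replicate 3 were each the lowest of their group for 7 genes. The coefficient of variation of the 10 genes had a median of 62.2% in WT D0, 29.9% in WT D7, 38.9% in Trem2-/- D0 and 11.7% in Trem2-/- D7 mice. Over the 16 libraries, which share the injury effect, Pearson's r on the log2 scale was highest for Fbn2 with Emilin1 (0.97), Fbn2 with Mfap2 (0.97) and Fbn1 with Mfap5 (0.96). Fbln1 stood apart, with r between 0.0031 (Fbn2) and 0.43 (Mfap4) to the other genes.

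Marker lists of several cell types also differed between D0 and D7, some in the direction of the 10 genes and some in the other. The summed level of 11 fibroblast markers lay between 11670 and 56170 CPM in WT D0, 85690 and 123700 in WT D7, 8614 and 18460 in Trem2-/- D0, and 106400 and 153600 CPM in Trem2-/- D7 mice. The 7 leukocyte markers lay between 3042 and 5938 CPM in WT D0, 1747 and 3837 in WT D7, 3760 and 6551 in Trem2-/- D0, and 1369 and 1713 CPM in Trem2-/- D7 mice. With limma's adjusted p, fibroblast markers rose in 7 of 11 in WT and 9 of 11 in Trem2-/- mice, where Pi16 fell. Their median log2 fold change was 1.55 in WT and 1.93 in Trem2-/- mice. The largest were those of the collagen genes Col1a1 (2.85 and 4.45), Col3a1 (2.85 and 4.40) and Col1a2 (2.56 and 3.98). Dcn passed in neither genotype. The summed level is weighted to the genes with the most reads and is not a count of fibroblasts. Leukocyte markers fell in 5 of 7 and 7 of 7, and the 6 chondrocyte markers tested rose in both genotypes. Tenocyte markers rose in 1 of 6 in WT and in 6 of 6 in Trem2-/- mice. The fitted changes of tenocyte markers were positive for 6 of 6 in WT too, with a median of 0.89, against 2.58 in Trem2-/- mice. Their summed levels lay between 718 and 4039 CPM in WT D0 and between 3126 and 6553 CPM in WT D7 mice. In Trem2-/- mice these sums lay between 1044 and 1970 CPM at D0 and between 4621 and 6250 CPM at D7. Of 6 endothelial markers 0 passed in either genotype, and smooth muscle and pericyte markers rose in 2 of 9 in WT and 3 of 9 in Trem2-/- mice, where 1 fell, which is near the shares of all genes called higher (15.9% in WT, 26.0% in Trem2-/- mice). The shares of all genes called lower were 12.6% and 27.2%. Osteoblast markers rose in 3 of 5 in WT and 4 of 5 in Trem2-/- mice, and skeletal muscle markers fell in 1 of 6 and 5 of 6. None of the markers tested was at 0 in all libraries. The part of these shifts in the levels of the 10 genes was not tested.

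**Figure D4:**
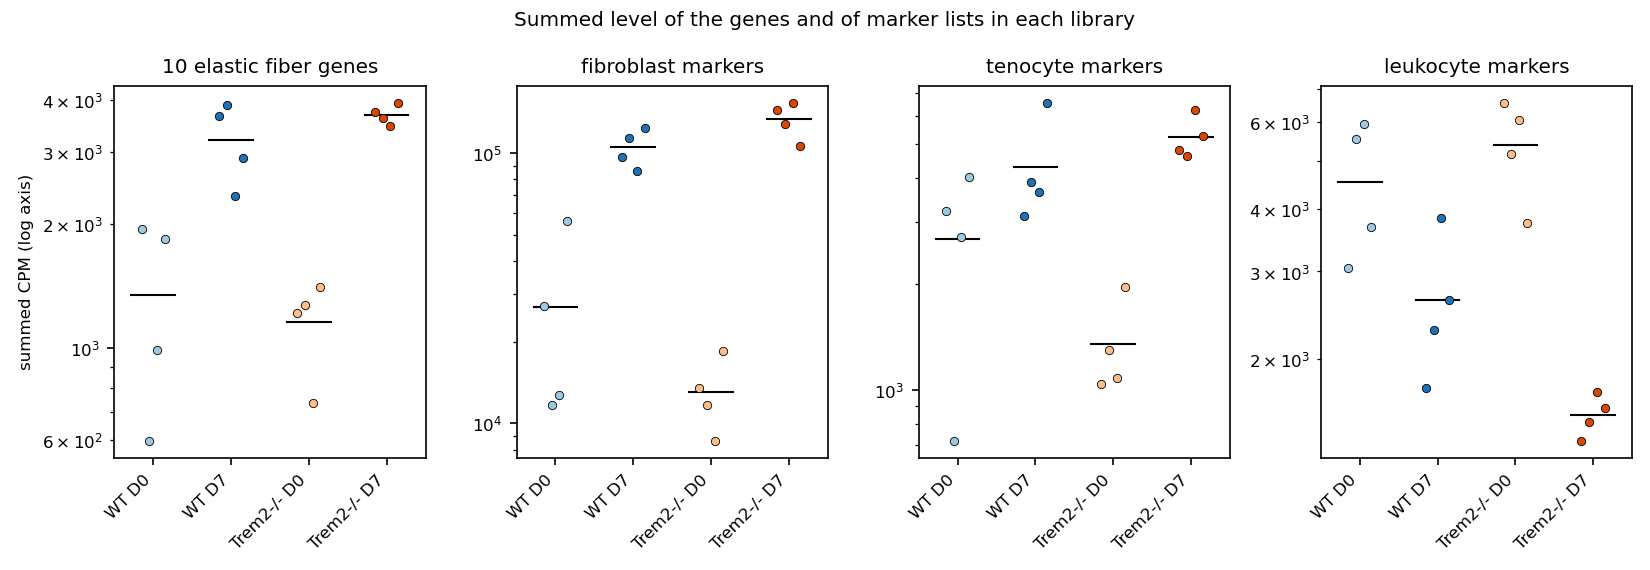
Summed CPM (log axis) of the 10 genes and of the fibroblast, tenocyte and leukocyte marker lists in the 16 libraries, with a line at each group's mean. The sum of the 10 genes lies between 597 and 1950 CPM in WT D0 and between 3460 and 3937 CPM in Trem2-/- D7 mice, and the leukocyte sum is lowest in Trem2-/- D7 mice.

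Most genes of a list on the assembly and crosslinking of elastic fibers and microfibrils rose as well. The list also holds related or other matrix genes, namely Emilin2, Emilin3, Mmrn1, Mmrn2, Vcan and Hspg2. Of its 24 genes, 15 rose and 0 fell in WT mice, with a median log2 fold change of 1.34. In Trem2-/- mice 16 rose and 1 fell, with a median of 1.82. Over all genes 15.9% rose and 12.6% fell in WT, and 26.0% rose and 27.2% fell in Trem2-/- mice. The gene that fell was Emilin2, a relative of Emilin1, at -1.04 ± 0.21 on the log2 scale (SE, limma adjusted p = 0.000849). All 5 lysyl oxidase genes, whose enzymes crosslink elastin and collagen, rose in both genotypes. Loxl3 had the largest log2 fold change of the list, at 2.98 ± 0.41 in WT (SE, limma adjusted p = 0.000572) and 3.48 ± 0.41 in Trem2-/- mice (limma adjusted p = 2.14e-05). Lox itself rose with log2 fold changes of 2.04 ± 0.47 and 3.27 ± 0.47, and Loxl2 with 2.50 ± 0.35 and 3.25 ± 0.35. Efemp2, a fibulin needed for lysyl oxidase to act on elastin, rose by 2.10 ± 0.35 in WT and 2.70 ± 0.35 in Trem2-/- mice on the log2 scale. Loxl4 (2.21 in WT, 2.80 in Trem2-/- mice), the basement membrane proteoglycan gene Hspg2 (1.83 and 1.92) and Emilin3 (1.42 and 2.52) rose too. Without WT D0 replicate 2 the WT values of Lox and Loxl4 were 1.44 and 1.54, and with a pseudocount of 5 the Trem2-/- value of Emilin3 was 1.66.

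Among 9 proteases that can cleave elastin, 4 rose and 4 fell in WT mice, and 3 rose and 4 fell in Trem2-/- mice (Mmp7 was not analysed here). Over all genes the shares were 15.9% higher and 12.6% lower in WT, and 26.0% higher and 27.2% lower in Trem2-/- mice, and the 3 of 9 that rose in Trem2-/- mice are close to that share. Those that fell were Elane, Prtn3, Ctsg and Mmp9, all proteases stored in granules of neutrophils or their precursors. Elane, neutrophil elastase, had log2 fold changes of -1.99 in WT and -2.62 in Trem2-/- mice (SE 0.49, limma adjusted p = 0.00980 and 0.000485). Those of Prtn3 were -1.96 and -2.59, and those of Ctsg were -1.85 and -2.51. Mmp2, a gelatinase of connective tissue cells, rose with log2 fold changes of 1.87 ± 0.46 and 3.15 ± 0.46, and Ctsk, a lysosomal protease that cleaves collagen, with 1.44 ± 0.39 and 2.78 ± 0.39. Elane and Prtn3 moved in the same direction as the leukocyte markers, and the part of leukocyte number in these falls was not tested. Mmp12 moved in the other direction, with log2 fold changes of 1.27 in WT (limma adjusted p = 0.0172) and 1.65 in Trem2-/- mice (limma adjusted p = 0.00133). It had the lowest mean of the 9 genes in every group. Ctss rose in WT (1.11, limma adjusted p = 0.00885) and did not pass in Trem2-/- mice (0.39, limma adjusted p = 0.238). Ctsl passed in neither genotype. In WT mice 5 protease genes passed without WT D0 replicate 3 and 4 with only the WT groups in the fit, in place of 8.

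**Figure D5:**
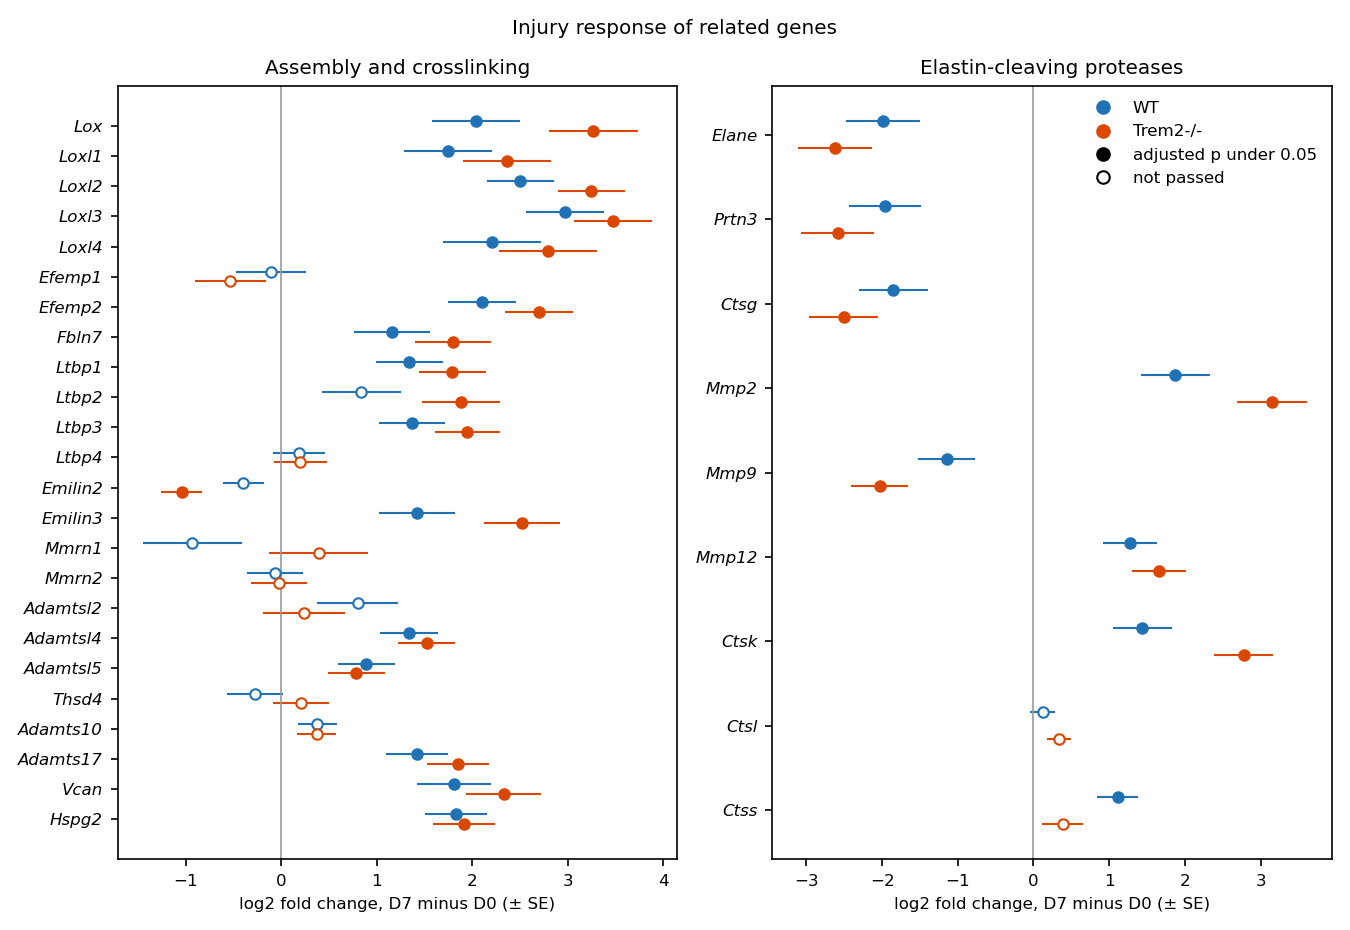
Fitted log2 fold change from D0 to D7 (± SE) of the 24 genes of the assembly and crosslinking list and 9 elastin-cleaving proteases. WT mice are in blue and Trem2-/- mice in orange, filled where limma's adjusted p was under 0.05. Loxl3 lies at 2.98 and 3.48 and Elane at -1.99 and -2.62.

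Without injury none of the 10 genes passed the test of genotype. The fitted log2 difference of Trem2-/- D0 from WT D0 mice ranged from -0.95 ± 0.65 (SE) for Fbn2 to 0.40 ± 0.30 for Eln, and limma's adjusted p was 0.9996 for every one of them. At this threshold 0 of the 10 genes and 0.0% of all genes passed, with 385 of all genes and 0 of the 10 at an unadjusted p under 0.05. Trem2, the gene altered in these mice, did not pass either, at -0.98 ± 0.25 (SE, limma adjusted p = 0.9996). Under the rule of the study's methods 0 of the 10 and 2.15% of all genes passed. The 95% confidence interval of the difference ran from -0.23 to 1.03 for Eln and from -2.32 to 0.42 for Fbn2, so differences within these intervals are not excluded.

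After injury the levels of the genotypes are given side by side, with no test. Mfap4 averaged 132.5 ± 7.98 CPM in Trem2-/- D7 and 60.8 ± 19.8 CPM in WT D7 mice (SD, n = 4), a log2 difference of 1.17, and the lowest Trem2-/- value (123 CPM) was above the highest WT value (86.2 CPM). Mfap2 averaged 46.6 ± 10.8 and 29.8 ± 7.28 CPM, and Fbln5 averaged 170.3 ± 9.73 and 130.9 ± 15.4 CPM. The values of Mfap2 overlapped and those of Fbln5 did not. The log2 differences were -0.06 ± 0.30 (SE) for Eln, 0.15 ± 0.47 for Fbn1, 0.09 ± 0.32 for Emilin1 and -0.04 ± 0.49 for Fbln1. Those of Fbn2 (0.60 ± 0.65), Mfap2 (0.63 ± 0.39), Mfap5 (0.43 ± 0.54) and Fbln2 (0.40 ± 0.28) were larger. In all, 2 of the 10 genes (Fbln5, Mfap4) and 3.55% of all genes were higher in Trem2-/- D7 mice with no overlap. The difference in injury response, Trem2-/- minus WT, was 1.88 ± 0.66 (SE) for Mfap4, 1.55 ± 0.91 for Fbn2 and 1.42 ± 0.55 for Mfap2 on the log2 scale. Since Mfap4 had been known to differ when the genes were chosen, nothing is read from these values.

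The genes with the pattern most like Eln and Mfap4 were taken as those with the highest Pearson's r of log2(CPM + 1) over the 16 libraries, among the 10551 genes averaging 5 CPM or more. For Eln these were Galnt16 (0.97), Zfp423 (0.96), Fblim1 (0.96), Ttc8 (0.96) and Tppp3 (0.95). Galnt16 averaged 25.9 CPM in WT D0, 62.2 in WT D7, 26.8 in Trem2-/- D0 and 66.5 CPM in Trem2-/- D7 mice, a pattern with near-equal D7 levels like that of Eln. For Mfap4 the genes were Itgbl1 (0.95), Plat (0.93), Nkain1 (0.93), Ogn (0.93) and Cpxm2 (0.93). Ogn averaged 231 CPM in WT D0, 256 in WT D7, 142 in Trem2-/- D0 and 460.0 CPM in Trem2-/- D7 mice. These coefficients rest on libraries that share injury and cell makeup and describe likeness only.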

How the data were processed

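RNA from knee joint cells of 16 mice in 4 groups had been sequenced in bulk. The deposited signal values are TMM-normalised CPM, which the authors made by alignment to mm10 with STAR, counting per gene with featureCounts and normalisation with edgeR. Their versions, annotation and strand setting are not given in the sources used here. Dividing each library by its smallest step gave whole reads for 100% of the values (within 0.02 of a read), so reads per gene were recovered. Fcgr1, which has 2 identical rows, was counted once.

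The members and lists were chosen with earlier results of these data known. The main test was limma 3.58.1 (R 4.3.3) with a moderated variance trend on log2(CPM + 1), a scale that shrinks the fold changes of low genes. All 4 groups entered one fit over the 13173 genes that reached 1 CPM in 4 or more libraries, with Benjamini-Hochberg adjustment over them and a threshold of 0.05. Nothing states that the mice of a group came from separate litters or batches, so p-values measure the spread between these samples. No library pair of a group differed by as little as sampling noise (chi-square per degree of freedom 10.4 or more). Limits of 3 reads cover counting error only.

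Named genes were the 10 members, Trem2, the 6 assembly and 4 protease genes with the largest absolute log2 fold change in each injury contrast and a mean of 5 CPM or more, the 5 genes most like Eln and like Mfap4, and marker genes needed for a list. Emilin2, Mmp9, Mmp12, Ctss, Ctsl, Dcn, Col1a1, Col1a2 and Col3a1 were named after their values were seen, to complete counts or describe a list. Mmrn1, Mmrn2 and Vcan are named only as genes of a list. Gene positions and sequences are from GENCODE M21 (GRCm38). The alternatives were a pseudocount of 0.1 or 5, no filter or a mean of 5 CPM, quantile normalisation, median-of-ratios size factors, a fit of the compared groups alone, no variance trend, a block on the replicate number, leaving out 1 library, the rule of the study, and 2 tests of the recovered reads (edgeR 4.0.16 quasi-likelihood, and voom followed by limma). The recovered-read test of edgeR called 3655 genes in WT and 7037 in Trem2-/- mice after injury. Same-numbered libraries correlated between -0.51 and 0.41 in their deviations from the group means, so the numbers were not taken to pair mice. Scripts were tested on simulated data with 200 genes changed. The single-cell experiments of the study were not analysed here.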

Additional observations from a re-analysis of the deposited data

Results flagged for a closer look

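In 3 of 40 groups of 4 mice (10 genes in 4 groups) a single library stood apart, where its gap to the nearest other library, as a share of the group's range, was over Dixon's 95% critical value for 4 samples. Chance gives about 1 in 20 such groups, which is 2 of 40. Fbn2 in WT D0 replicate 4 was at 54.4 CPM, against 2.39 to 10.5 CPM in the other 3 mice, with a gap of 0.844 of the range. Fbln1 in Trem2-/- D7 replicate 3 was at 64.7 CPM, against 50.3 to 51.3 CPM, with a gap of 0.927 of the range. Emilin1 in the same library was at 562 CPM, against 449 to 450 CPM, with a gap of 0.990 of the range. The last 2 gaps are wide because the other 3 mice lay close together.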

How the results depend on the processing

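Eln, Fbn1, Fbn2, Mfap2 and Emilin1 kept their rise past the threshold in both genotypes in 27 of 27 alternatives, and so did Fbln2, Mfap4 and Mfap5 in Trem2-/- mice. The counts of members that passed ranged from 5 to 7 in WT and from 8 to 9 in Trem2-/- mice when replicates were left out, and those of assembly genes from 12 to 17 and from 16 to 17. With replicates left out, elastase genes in WT ranged from 5 to 8, and all genes called from 1972 to 4792 in WT (against 3752, with 2498 when WT D7 replicate 1 was out, 2256 when WT D0 replicate 2 was out and 1972 when WT D0 replicate 3 was out), from 0 to 1 between genotypes at D7 and from 0 to 1 for the difference in response. When the fit held the 2 groups of a contrast alone, 4 elastase genes and 1736 genes in all passed in WT (66.5% of them higher, against 55.7%), and 5 genes in all between genotypes at D7. A count of 1 gene at D7 was given by a pseudocount of 5, by eBayes without trend and by voom with limma. The rule of the study, with no adjustment, counted 1 member at D7 and 2 for the difference in response, against 0 and 0 with limma's adjusted p, and since these values were known when the members were chosen the counts are no test of them. It gave 283, 753 and 1026 genes in all at D0, at D7 and for the difference in response. Directions turned only for values that had not passed. Fbln2 between genotypes at D0 was -0.018 with quantile normalisation and -0.0499 with edgeR. Across fits without 1 replicate, the D0 genotype difference ranged from -0.66 to 0.13 for Fbn1, from -0.94 to 0.0281 for Fbln1, from -0.26 to 0.28 for Fbln2, from -0.14 to 0.35 for Fbln5 and from -0.65 to 0.29 for Mfap5. The injury response ranged from -0.51 to 0.26 for Fbln1 in Trem2-/- mice and from -0.17 to 0.69 for Mfap4 in WT mice. With the replicate block, 6 members and 3561 genes in all passed in WT and 8 members and 6773 genes in Trem2-/- mice, and the numbers are not known to pair mice. The cause of these changes was not tested. The values of the members all lay above that of 3 reads, and the effect of depth on the tests was not tested.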
